A study of Homo sapiens with 4 samples.

Results

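Accessible chromatin around 7 genes tied to self-renewal of leukaemic and blood stem cells was described in ME-1 cells: MN1, MEIS1, PBX3, MECOM, WT1, BAALC and ETV6. ME-1 is an established human cell line from an acute myeloid leukaemia that carries inv(16), in which CBFB and MYH11 are fused and encode CBFβ-SMMHC. All groups were ME-1 cells kept for 6 h with either the solvent DMSO or 1 µM AI-10-49, a compound that blocks binding of CBFβ-SMMHC to RUNX1, and each group had 2 ATAC-seq libraries. ATAC-seq reads out where the Tn5 transposase can insert adapters into open DNA, and the series addresses what inhibition of the fusion protein does to chromatin. ME-1 is a single line, so neither group covers other inv(16) leukaemias.

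The members were all deposited peaks (build hg19) whose midpoint lay within 100 kb of an approximate gene start. MECOM had 2 starts, 1 for its long and 1 for its short form, which made 8 windows. They held 233 of the 234888 peaks of the 4 lists. Overlapping peaks of the 4 lists were merged into 103 sites. The starts are rounded positions, so distances are exact only to about the rounding, and no annotation of hg19 was used to place a site in an exon, an intron or a UTR. The limit of 100 kb cut through no gap in the data: 28 peaks lay 90 to 100 kb and 28 lay 100 to 110 kb from a start, with a median of 6 reads at the summit on both sides. The last peak inside was 99.9 kb from the MECOM long start (13 reads, AI-10-49 replicate 2), and the first outside was 100.4 kb from WT1 (4 reads, DMSO replicate 1).

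MEIS1 and PBX3 encode homeodomain proteins that bind DNA together with HOX proteins, and MEIS1 keeps blood stem cells and many leukaemias in a self-renewing state. MECOM encodes zinc finger regulators of stem cell maintenance, of which the short form, EVI1, lacks the PR domain of the long form, MDS1-EVI1. WT1 is a zinc finger transcription factor gene often active in acute myeloid leukaemia, ETV6 encodes an ETS-family repressor that adult blood stem cells need, MN1 encodes a transcriptional co-regulator, and BAALC encodes a cytoplasmic protein of progenitor cells. MN1 and BAALC serve as expression markers in acute myeloid leukaemia.

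The promoters of 5 of the 7 genes are printed from the RefSeq table, since the data bear on whether each start was open. Each sequence is the 250 bases before a start on GRCh38.p14, a build other than that of the peaks, so no peak was placed on it. Capitals mark matches, on either strand, to TGTGGT (RUNX), CCGGAA (ETS), GGGCGG (GC box), the letters of the CCAAT box, CACGTG (E-box), TGACAG (MEIS) or AGATAA (the letters bound by blood regulators of the GATA family). The first 4 sequences belong to starts with a site in every library within 5 kb, and the last 2 to starts without such a site.
MEIS1, chr2:66434875-66435124, plus strand: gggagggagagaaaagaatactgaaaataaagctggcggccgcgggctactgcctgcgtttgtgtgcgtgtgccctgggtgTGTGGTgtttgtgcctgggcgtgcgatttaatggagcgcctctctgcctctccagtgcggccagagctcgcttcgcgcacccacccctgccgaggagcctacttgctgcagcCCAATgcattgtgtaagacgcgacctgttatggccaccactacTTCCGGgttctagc
PBX3, chr9:125747933-125748182, plus strand: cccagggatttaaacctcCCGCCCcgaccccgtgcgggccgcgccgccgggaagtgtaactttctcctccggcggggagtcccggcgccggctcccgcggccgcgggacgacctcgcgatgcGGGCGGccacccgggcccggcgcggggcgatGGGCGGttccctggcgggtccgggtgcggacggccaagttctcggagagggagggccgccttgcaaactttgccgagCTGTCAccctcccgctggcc
WT1, chr11:32435540-32435789, minus strand: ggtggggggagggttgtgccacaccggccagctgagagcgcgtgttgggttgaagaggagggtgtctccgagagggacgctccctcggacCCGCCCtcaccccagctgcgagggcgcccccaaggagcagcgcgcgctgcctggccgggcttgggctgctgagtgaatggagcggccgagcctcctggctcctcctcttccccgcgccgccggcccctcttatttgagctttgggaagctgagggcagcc
MECOM short form, chr3:169147472-169147721, minus strand: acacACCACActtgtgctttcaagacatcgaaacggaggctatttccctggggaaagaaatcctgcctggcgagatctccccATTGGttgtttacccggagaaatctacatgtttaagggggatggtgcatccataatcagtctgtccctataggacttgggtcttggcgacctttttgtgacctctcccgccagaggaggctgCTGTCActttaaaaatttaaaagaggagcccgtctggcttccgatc
MECOM long form, chr3:169663713-169663962, minus strand: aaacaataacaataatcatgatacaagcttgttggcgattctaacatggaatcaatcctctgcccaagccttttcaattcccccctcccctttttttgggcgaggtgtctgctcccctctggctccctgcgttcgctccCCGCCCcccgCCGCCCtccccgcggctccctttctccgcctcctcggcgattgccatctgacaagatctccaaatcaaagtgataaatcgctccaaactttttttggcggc
ETV6, chr12:11649424-11649673, plus strand: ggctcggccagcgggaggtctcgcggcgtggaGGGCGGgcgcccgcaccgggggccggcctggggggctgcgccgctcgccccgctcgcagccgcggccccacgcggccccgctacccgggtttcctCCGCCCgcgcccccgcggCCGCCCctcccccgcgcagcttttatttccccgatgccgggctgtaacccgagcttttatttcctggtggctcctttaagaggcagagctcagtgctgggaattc

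The RUNX letters, the core bound by the RUNX1 and CBFβ complex, occurred in MEIS1 at position -169 and in the MECOM short form at -246, counted from the start. They occur in 11.0% of the 35116 promoters of the table. MEIS letters, which occur in 13.0%, were found in PBX3 at -20 and in the MECOM short form at -46. GC boxes (42.6% of promoters) were present in PBX3, WT1, ETV6 and the MECOM long form. An ETS match (14.5%) and a CCAAT box (32.0%) stood in MEIS1 at -14 and -57, and a CCAAT box stood in the MECOM short form. No E-box (6.3%) or GATA match (9.2%) was in these 6 windows. The table holds 1 further entry for MECOM and 3 for WT1, which are not printed. The further MECOM entry, also at the short form, has a GATA match at -29 and a GC box at -81, and 1 of the WT1 entries has a MEIS match at -163. G and C made up 75.6% of the PBX3 window, 74.4% of ETV6 and 70.4% of WT1, against 59.6% in MEIS1, 53.6% in the MECOM long form and 49.6% in the MECOM short form. The median of all promoters was 58.0%. A match is a run of letters and not a measured binding site.

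Both DMSO lists (67388 and 65132 peaks for replicates 1 and 2) were longer than both AI-10-49 lists (48930 and 53438). Depth is known only through the reads at peak summits, which were recovered from the fold and p-value of each peak, and through the background level of each library, at 0.0613 and 0.0600 reads per base under DMSO and 0.0965 and 0.108 under AI-10-49. The weakest listed peaks had 2 reads under DMSO and 3 under AI-10-49, or 32.6, 33.3, 31.1 and 27.9 times the background. A site that is not listed in a library lay below the caller's threshold there, and is not shown to be closed. Heights are given as reads and as multiples of the background of the library, and ranks as percentiles by p-value among the peaks of a list, with the strongest peak at 100, which also weighs the local background.

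Across the 8 windows, 28 of the 103 sites held a peak in all 4 libraries. This was 27.2%, against 28.1% of all merged regions of the genome, a share near the background. A single library alone held 42 sites (40.8%, against 43.9% of all regions). A further 13 sites were in 3 libraries and 20 in 2. The constant sites were broader, with a median width of 197 bp (119 to 568 bp) against 101 bp for the other sites, as over the genome, where the medians were 213 and 91 bp. Member peaks had a median percentile of 46.2 and 48.9 in the DMSO lists and 46.0 and 43.2 in the AI-10-49 lists, so as a set they ranked slightly below the middle of each list.

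**Figure D1:**
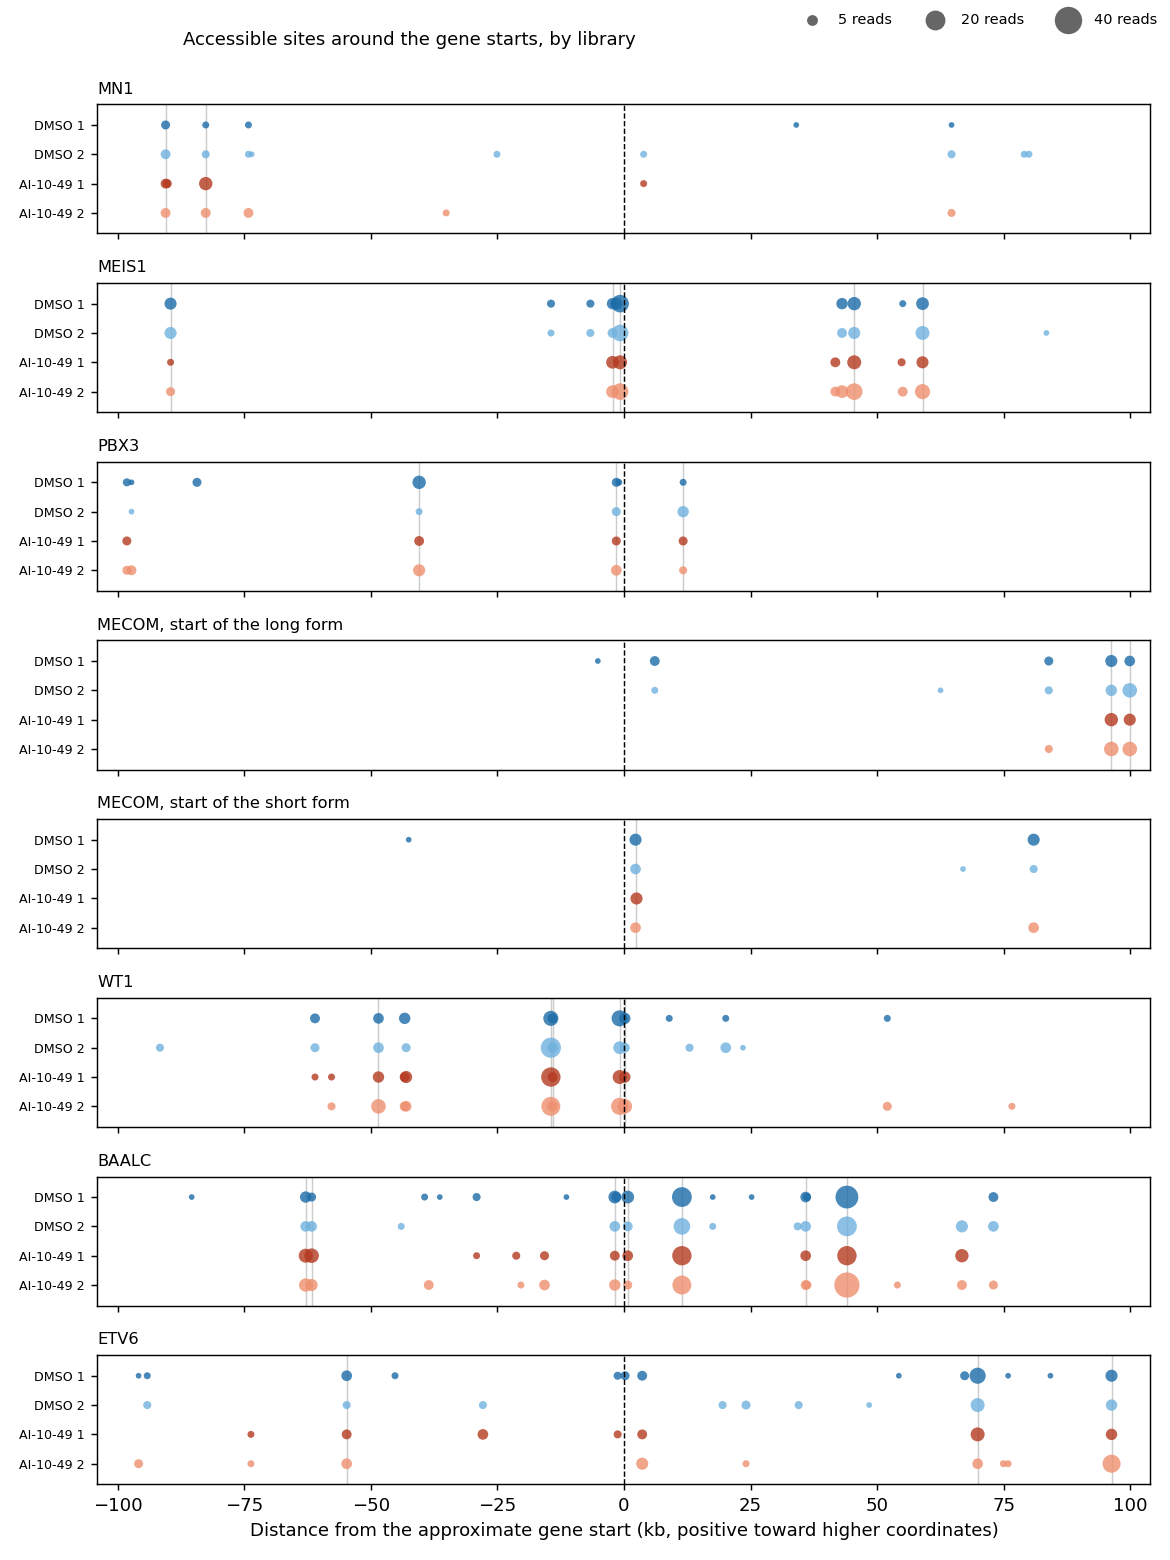
Each row of a panel is a library and each dot a peak, placed by its distance in kb from the approximate gene start (dashed line), with an area in proportion to the reads at its summit. Grey lines mark the 28 sites in all 4 libraries: MEIS1, PBX3, WT1 and BAALC have sites at the start and at a distance, whereas MN1, ETV6 and the long form of MECOM have such sites only away from the start.

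A site in all 4 libraries lay within 5 kb of 5 of the 8 starts, those of MEIS1, PBX3, WT1, BAALC and the MECOM short form. The share of all gene starts with such a site was not counted, so this number cannot be called high or low. BAALC had the most constant sites with 7, followed by MEIS1 and WT1 with 5 each, PBX3 and ETV6 with 3 each, MN1 and the MECOM long start with 2 each, and the MECOM short start with 1. Over the 13419 bins of 200 kb that held any region, the median was 1 constant site. At least the 7 of BAALC were in 5.78% of bins, and at least the 5 of MEIS1 and WT1 in 15.2%. At least the 1 of the MECOM short start was in 70.6%. The bins are a fixed grid, and 29.4% of them held no constant site. The windows are centred on gene starts, so these shares do not compare them with other gene starts.

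MEIS1 had an open start and open sites on the side of its gene body. The start site, chr2:66662092-66662363, was 0.77 kb upstream and the strongest of the window, with 19 and 17 reads in DMSO cells and 12 and 17 in treated cells. As multiples of the background these heights were 310 and 283.2 under DMSO and 124.4 and 158.0 under AI-10-49, a mean of 296.6 ± 19.0 against 141.2 ± 23.8 (SD, n = 2 each). Both treated libraries lay below both controls on this scale and by percentile (94.0 and 95.5 against 71.9 and 81.6), but not in unscaled reads. The exact two-sided permutation p was 0.333, the smallest that 2 against 2 libraries allow. A second site upstream, chr2:66660656-66660825, had 8, 6, 10 and 10 reads in the order of DMSO replicate 1, DMSO replicate 2, AI-10-49 replicate 1 and AI-10-49 replicate 2, and its multiples of background (130.5, 100.0, 103.7 and 93.0) overlapped between the groups. By percentile it was above both controls in both treated libraries (45.3 and 32.9 against 58.8 and 46.1), opposite to the start site. On the side of the gene body, chr2:66721867-66722065 (59.0 kb) had 10, 12, 9 and 14 reads, and chr2:66708286-66708671 (45.5 kb) had 11, 9, 12 and 17 reads. The first of these was lower in both treated libraries only as a multiple of background (163.2 and 199.9 against 93.3 and 130.2), and the second overlapped on that scale.

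The far upstream MEIS1 site chr2:66573347-66573531, 89.6 kb from the start, was named after its values were seen. It had 9 and 9 reads under DMSO and 3 and 5 under AI-10-49, which was 146.9 and 149.9 against 31.1 and 46.5 times the background. Its percentile was 85.4 and 88.1 in the control lists and 6.7 and 36.4 in the treated lists. It was the single site of the 28 with fewer reads in both treated libraries than in both controls, and its mean height under AI-10-49 was 0.261 of that under DMSO (exact permutation p = 0.333). Over the genome, 3.8% of constant regions had fewer reads in both treated libraries, so 1 of 28 (3.57%) is near the background. MEIS1 also had 2 DMSO-only sites, meaning a peak in both DMSO lists and in neither AI-10-49 list, at chr2:66648518-66648650 with 4 and 3 reads and chr2:66656284-66656440 with 4 and 4. An AI-10-49-only site, chr2:66704687-66704804, had 6 and 6 reads.

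PBX3, whose protein joins MEIS1 and HOX proteins on DNA, had an open start of middling rank. The site chr9:128508421-128508546, 1.52 kb upstream, had 5, 5, 5 and 7 reads. It was 81.6 and 83.3 times the background under DMSO and 51.8 and 65.1 times under AI-10-49. Its percentile was 59.6 and 59.0 against 36.6 and 56.1. A smaller peak of 3 reads at chr9:128508929-128508999, nearer to the start, was listed in DMSO replicate 1 alone. The strongest site of the window by mean percentile, chr9:128469461-128469614, had 11, 3, 6 and 9 reads and lay 40.5 kb away on the side of the neighbouring gene MAPKAP1, so it need not belong to PBX3. The DMSO replicates differed there by more than the groups did (179.5 and 49.98 times the background, against 62.2 and 83.7). On the gene body side, chr9:128521610-128521761, had 3, 8, 5 and 4 reads, and the groups overlapped there as well.

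The 2 starts of MECOM differed in what was listed at them. At the short form, EVI1, the site chr3:168867202-168867365 lay 2.28 kb upstream and was in all 4 libraries with 9, 7, 9 and 7 reads. Its height was 146.9 and 116.6 times the background under DMSO and 93.3 and 65.1 times under AI-10-49, and its percentile 85.1 and 79.8 against 73.5 and 54.3, so the groups did not overlap on either scale, while the reads were the same in both groups. No other site of that window was in all 4 libraries. At the long form, MDS1-EVI1, no library listed a peak within 5 kb. The nearest, chr3:169375805-169375869 at 5.16 kb, had 2 reads in DMSO replicate 1, the lowest number the list holds. A DMSO-only site, chr3:169387033-169387132, lay 6.08 kb upstream with 6 and 3 reads. The 2 constant sites of the long window, chr3:169477116-169477402 (9, 8, 11 and 13 reads) and chr3:169480830-169480977 (7, 13, 9 and 13 reads), were 96.3 and 99.9 kb away, toward the neighbouring gene ACTRT3. The first was above both controls by percentile in both treated libraries (73.7 and 65.0 against 74.4 and 77.8), but below both as a multiple of background (146.9 and 133.3 against 114.0 and 120.9). Whether the 2 starts differ beyond counting error was not tested, since absence from a list has no recorded height.

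WT1 was open at its start and on the side of its gene body, and at its 3 strongest sites the groups overlapped as multiples of background and by percentile. The strongest site, chr11:32442388-32442723, lay 14.4 kb into the gene and had 14 and 25 reads under DMSO and 23 and 22 under AI-10-49. Its height was 228.4 and 416.5 times the background under DMSO and 238.4 and 204.5 times under AI-10-49, so the groups overlapped (exact permutation p = 0.667), and without DMSO replicate 2 the difference shrank from -101.0 to -6.98. Next to it, chr11:32442826-32442956 had 6, 7, 6 and 7 reads. There both treated libraries were below both controls as multiples of background (97.9 and 116.6 against 62.2 and 65.1) and by percentile (38.8 and 44.7 against 15.9 and 20.2). At the start, chr11:32455994-32456294 had 16, 10, 12 and 18 reads and chr11:32457047-32457276 had 8, 6, 8 and 13. The latter is the nearest to the start. It was 130.5 and 100.0 times the background under DMSO and 82.9 and 120.9 times under AI-10-49, with overlap. Further on, chr11:32408372-32408644, the third strongest, had 7, 7, 8 and 13 reads, more in both treated libraries than in both controls. WT1 had a DMSO-only site at chr11:32477048-32477153 with 3 and 7 reads and an AI-10-49-only site at chr11:32399192-32399275 with 3 and 4.

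By the mean percentile over the 4 lists, BAALC had the strongest site of all windows. It was chr8:104196826-104197249, 44.0 kb from the start on the gene body side, with 32 and 24 reads under DMSO and 23 and 39 under AI-10-49. Its percentile was 99.2 and 98.2 against 94.0 and 98.4, so it stayed near the top of every list. In DMSO replicate 2 and AI-10-49 replicate 1 the strongest WT1 site ranked above it. The broadest constant site, chr8:104164154-104164721 (568 bp, 11.4 kb), had 24, 17, 23 and 22 reads. Both of these BAALC sites outranked the one at its start in every library. The start site chr8:104153661-104153818 had 10 and 6 reads under DMSO and 7 and 5 under AI-10-49, which was 163.2 and 100.0 against 72.6 and 46.5 times the background, and its percentile was 72.5 and 41.4 against 35.9 and 10.7. The groups did not overlap on these scales (exact permutation p = 0.333), but did in reads. A site 1.81 kb upstream, chr8:104151105-104151275, had 10, 7, 6 and 8 reads, and the groups did not overlap there on these scales either. On the far side of the start, toward the neighbouring gene ATP6V1C1, chr8:104090071-104090189 had 8 and 7 reads under DMSO and 12 and 11 under AI-10-49. This site need not belong to BAALC. Its percentile was above both controls in both treated libraries (64.3 and 57.7 against 73.7 and 65.7). BAALC had a DMSO-only site at chr8:104170477-104170570 with 2 and 3 reads, and an AI-10-49-only site at chr8:104137237-104137367 with 5 and 7.

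ETV6 had no start site common to all libraries. Within 5 kb, chr12:11803168-11803256 was listed in DMSO replicate 1 alone with 5 reads, chr12:11801677-11801832 in DMSO replicate 1 and AI-10-49 replicate 1 with 4 reads each, and chr12:11806512-11806681 in DMSO replicate 1 and both AI-10-49 libraries with 6, 6 and 9 reads. DMSO replicate 2 listed none of them. The constant sites were distal. The strongest, chr12:11872721-11872989, lay 69.9 kb into the gene with 16 and 12 reads under DMSO and 12 and 7 under AI-10-49, a height of 230.5 ± 43.3 times the background against 94.7 ± 41.9 (SD, n = 2 each; exact permutation p = 0.333). Its percentile was 94.5 and 89.7 against 81.2 and 46.6. A site at 96.3 kb, chr12:11899151-11899458, had 9, 8, 8 and 20 reads, and the AI-10-49 replicates differed there by more than the group means. Upstream, chr12:11748120-11748330 had 7, 4, 6 and 7 reads. The DMSO-only site chr12:11708775-11708889 had 3 and 4 reads, and the AI-10-49-only site chr12:11729256-11729374 had 3 and 3.

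MN1 had the lowest-ranked leading site: the mean percentile over the 4 lists was 49.2 at its strongest constant site, against 65.9 at that of PBX3, the next lowest. The MN1 start had no constant site: the nearest site, chr22:28200818-28200943 at 3.88 kb, was listed in DMSO replicate 2 and AI-10-49 replicate 1 with 3 reads each. The 2 constant sites were 82.6 and 90.5 kb away, toward lower coordinates. The strand of MN1 and the distances to neighbouring genes were not used here, so whether the sites belong to MN1 was not tested. At chr22:28114313-28114461 the reads were 3 and 4 under DMSO and 11 and 6 under AI-10-49, and the percentile was 26.2 and 42.4 against 81.5 and 46.8, so both treated libraries lay above both controls. As a multiple of background the groups overlapped (48.95 and 66.6 against 114.0 and 55.8), and without AI-10-49 replicate 1 the difference in means turned from 27.1 to -2.01. At chr22:28106358-28106558 the reads were 5, 6, 6 and 6. This site went the other way on the scaled measures, with a percentile of 52.1 and 66.8 against 36.9 and 31.5 and a height of 81.6 and 100.0 against 62.2 and 55.8 times the background.

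**Figure D2:**
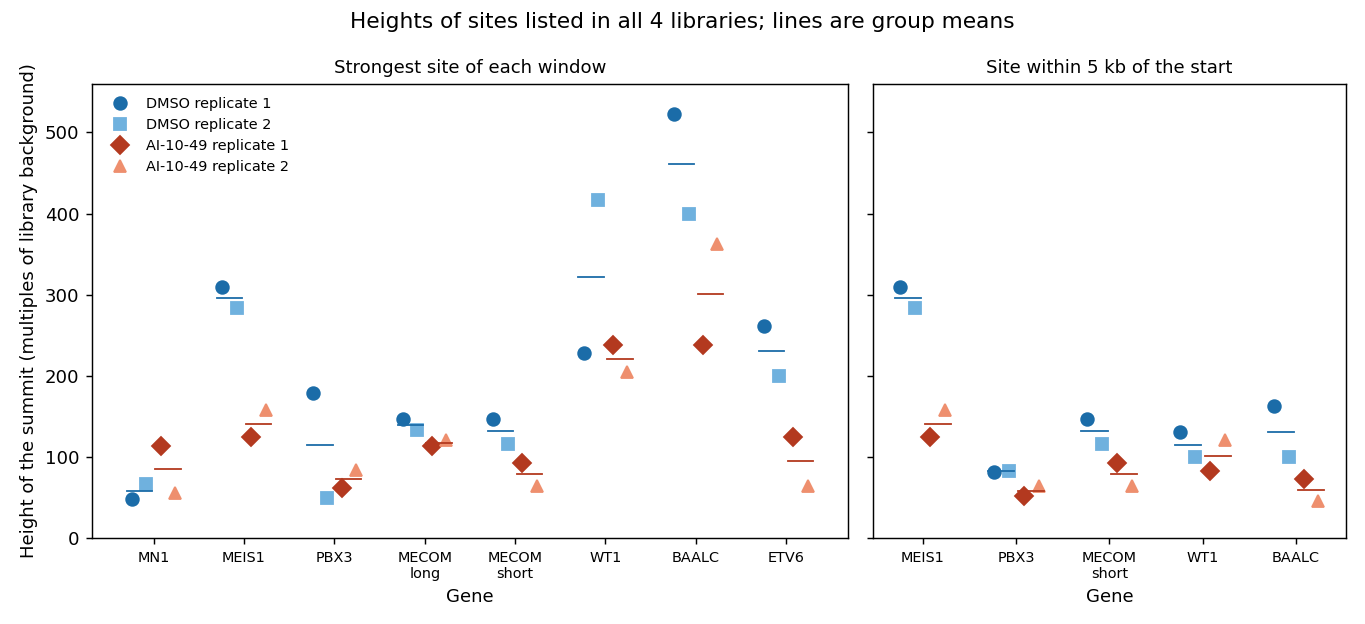
Points give the height of a site in each library, as multiples of that library's background, and lines the mean of the 2 libraries of a group, for the strongest site of each window (left) and the site in all 4 libraries nearest to each start, where 1 lay within 5 kb (right). At the starts of MEIS1, PBX3, BAALC and the MECOM short form both AI-10-49 points lie below both DMSO points, while those of WT1 overlap. In unscaled reads the groups overlap at all of these starts. Over the genome, 47.9% of regions in all 4 libraries are lower in both AI-10-49 libraries on the scale shown, and 5.21% are higher.

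Numbers of peaks per window were lower on average under AI-10-49 in each of the 8 windows. The share of 200 kb bins of the genome with a lower mean was not counted, so this number cannot be called high or low. The windows together held 70 and 62 peaks under DMSO and 45 and 56 under AI-10-49, a mean of 66 ± 5.66 against 50.5 ± 7.78 (SD, n = 2 each; exact two-sided permutation p = 0.333). The difference was -23.5%, next to -22.8% for all peaks of the lists, which is close. The groups did not overlap in 3 windows, those of MEIS1 (10 and 9 against 7 and 8) and of the MECOM long start (5 and 5 against 2 and 3) and short start (3 and 3 against 1 and 2). This was 37.5% of the windows, against 32.3% of the 200 kb bins of the genome with any peak, counted in the same direction (fewer under AI-10-49). BAALC had 17, 12, 11 and 14 peaks, ETV6 13, 9, 7 and 9, and WT1 10, 11, 9 and 10. MN1 had 5, 9, 4 and 5, and PBX3 7, 4, 4 and 5. The direction depended on the peaks counted: with at least 5 reads at the summit the mean difference was 4.5 more peaks under AI-10-49. Among peaks with −log10 q-values from 5 upward it was 2 more. A height of 5 reads was 81.6 and 83.3 times the background under DMSO and 51.8 and 46.5 times under AI-10-49. The cut by reads was therefore stricter for the DMSO libraries. With summits of at least 60 times the background the difference was -16.

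**Figure D3:**
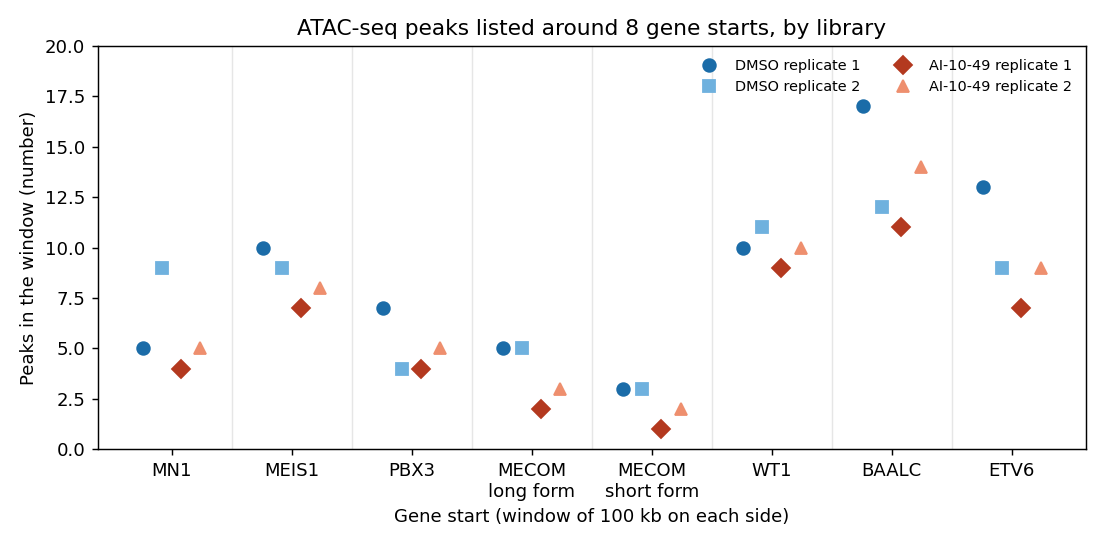
Points give the number of peaks each library listed within 100 kb of each start. The 2 AI-10-49 points lie below both DMSO points for MEIS1 and both MECOM starts, and touch or overlap the DMSO range elsewhere.

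DMSO-only sites numbered 6 of the 42 sites in both DMSO libraries (14.3%, against 11.8% of all such regions), and AI-10-49-only sites 4 of the 37 in both AI-10-49 libraries (10.8%, against 5.36%). These had at most 7 reads in any library. Their percentiles ran from 2.28 (the AI-10-49-only WT1 site, AI-10-49 replicate 1) to 81.8 (the DMSO-only WT1 site, DMSO replicate 2). Leaving out a library loosens the rule, as fewer lists must agree, so these counts could only stay or rise. The DMSO-only count was 21 without DMSO replicate 1, 24 without DMSO replicate 2 and 13 without AI-10-49 replicate 2. The AI-10-49-only count was 7, 10 and 7 without DMSO replicate 1, AI-10-49 replicate 1 and AI-10-49 replicate 2. Genome shares under the looser rule were not counted.

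Among the 28 constant sites, both treated libraries were below both controls at 15 as multiples of background (53.6%, against 47.9% of all constant regions) and above them at 0 (against 5.21%). By percentile they were below at 11 (39.3%, against 29.2%) and above at 4 (14.3%, against 11.8%). In unscaled reads they were below at 1 and above at 7 (25.0%, against 35.1%). Of the 11 that were lower by percentile, 4 were at BAALC, 2 at MEIS1 and 1 each at MN1, PBX3, the MECOM short start, WT1 and ETV6. Whether the groups separated at a site thus depended on the scale for most of these sites. The site 89.6 kb upstream of MEIS1 was below both controls on all 3 scales. The 4 sites above both controls by percentile, 1 each at MN1, MEIS1, BAALC and the MECOM long start, were also above them in reads. At the constant sites the median height was 146.9 and 116.6 times the background under DMSO and 93.3 and 88.3 times under AI-10-49, against 130.5, 116.6, 93.3 and 93.0 over all constant regions.

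**Figure D4:**
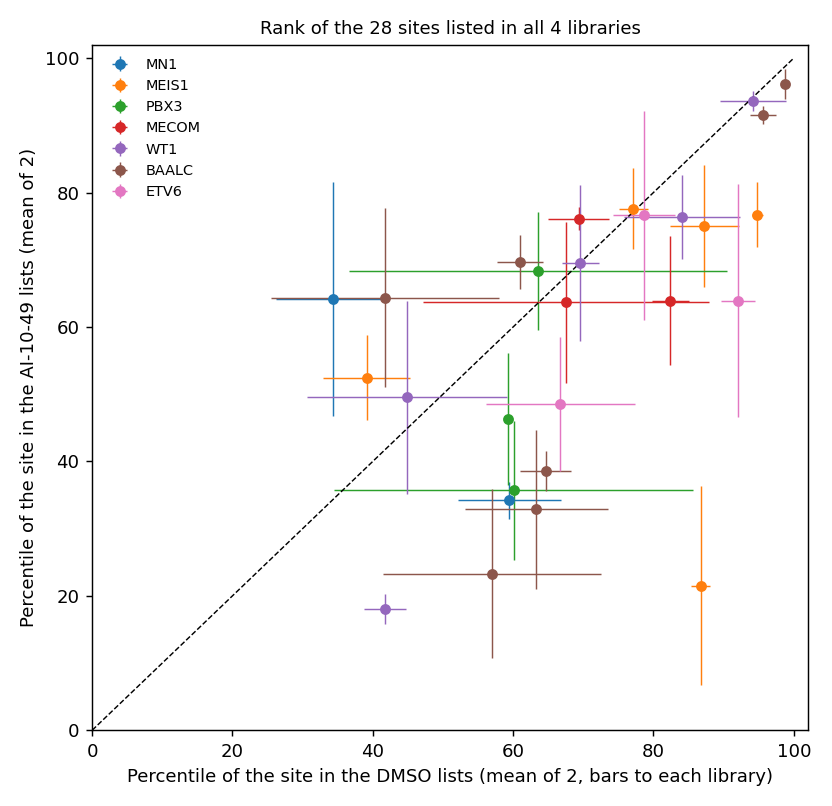
Each point is a site in all 4 libraries, placed by its mean percentile in the DMSO lists (x) and in the AI-10-49 lists (y), with bars to the values of the single libraries and a dashed line of equal rank. The 2 strongest BAALC sites and the strongest WT1 site lie near the top of both, and the far upstream MEIS1 site lies lowest against the line, at 86.8 under DMSO and 21.5 under AI-10-49.

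The same was counted at 11 other stem cell and self-renewal genes, at approximate hg19 positions from general knowledge. A site in all 4 libraries lay within 5 kb of the start in 5 of 11: BMI1, a Polycomb gene needed for stem cell self-renewal, the transcription factor genes SOX4 and GFI1, the chromatin reader gene MLLT3, and NRIP1, the gene of a nuclear receptor co-regulator. No such site was listed at HOXA9, PRDM16, HLF, HMGA2, CD34 and DNMT3B. The median was 3 constant sites within 100 kb, as in the 8 windows (3), and the range was 0 to 13. CD34, the gene of a surface marker of stem and progenitor cells, had 13. HOXA9, a HOX partner gene of MEIS1, had 3 constant sites in its window. At the start of SOX4, chr6:21593797-21594069 had 19, 9, 28 and 20 reads. DMSO-only sites numbered 7 of the 52 sites in both DMSO libraries at these genes (13.5%, against 11.8% of all such regions), and AI-10-49-only sites 8 of the 58 in both AI-10-49 libraries (13.8%, against 5.36%).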

How the data were processed

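ATAC-seq libraries of ME-1 cells (2 with DMSO, 2 with AI-10-49) were used as deposited peak lists, 1 per library, on hg19. Group and replicate came from the sample titles. Per the submitters' processing notes, the tools included MACS2 2.1.0, a peak caller, besides Bowtie2, cutadapt 1.3, Picard 1.96 and deepTools. How peaks were called beyond that is not given in the sources used here. The deposited lists give for each peak an integer score, a fold over local background (a ratio), −log10 p- and q-values and a summit offset, all written by the authors' peak caller. The deposited score was not used.

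Autosomal and X-linked peaks were kept, and rows with the same coordinates were collapsed to the highest −log10 p-value. Reads at a summit were the whole number whose Poisson −log10 p-value, given the deposited fold, lay closest (tolerance 0.001); this step and the merging were tested on simulated data. It failed for 4 or 5 peaks per library and for 0 members. Background is the most frequent local level. Peaks were merged at 1 bp overlap; windows, groups and approximate starts followed the stated rule. Sites named in a window are that nearest to the start, the 3 strongest in all 4 libraries by mean percentile, and all DMSO-only and AI-10-49-only sites; other sites named at BAALC, WT1, MEIS1 and ETV6 were chosen after their values were seen. Group means were compared by exact permutation over libraries, which ranks the difference of means among the relabellings of these libraries. Full separation of 2 against 2 libraries gives a p of 0.333 whatever the spread. The p-values cover these libraries only. Members and lists were chosen with earlier results of these data known. A gene of the list of other stem cell genes is not reported here. Python 3.11.15 with pandas 2.3.3, NumPy 2.4.6 and SciPy 1.17.1 was used. Alternatives were −log10 q-values from 5 upward, the strongest 48930 peaks of every list, windows of 50 kb, 50% reciprocal overlap, summits within 150 bp, other height scales, the replicate block and leaving out each library; at least 5 reads and 60 times the background were added after seeing the data.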

Additional observations from a re-analysis of the deposited data

How the results depend on the processing

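Peaks per library (-15.5 with AI-10-49) kept their direction with the strongest 48930 peaks (-2), windows of 50 kb (-10.5), 60 times the background (-16) and each library left out (-21 to -10), and turned with −log10 q-values from 5 upward (2) and at least 5 reads (4.5). Sites in all libraries (28) were 16 with −log10 q-values from 5 upward, 17 with 50 kb, where fewer sites are counted, and 29 to 35 with a library left out. DMSO-only sites (6) were 2 with −log10 q-values from 5 upward, 1 with at least 5 reads and 7 to 24 with a library left out. AI-10-49-only sites (4) were 2 with the strongest peaks, 2 with 50 kb, 0 at 60 times the background and 6 to 10 with a library left out. With a library left out, these counts of sites could only stay or rise, as fewer lists must agree. The 2 ways of matching peaks left these counts within 1.5 times.

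Differences in height (AI-10-49 minus DMSO, multiples of background) turned by percentile at the strongest PBX3 (4.75) and MECOM long start (6.77) sites and the WT1 start site (4.66). In unscaled reads they turned at the strongest PBX3 (0.5), MECOM long start (3.5), WT1 (3) and BAALC (3) sites and the start sites of PBX3 (1) and WT1 (3.5). With a library left out, the ranges were -2.01 to 56.2 for the strongest site of MN1, -106.6 to 22.96 for PBX3 and -32.3 to 5.61 for the WT1 start site, each with a change of sign. They kept their sign for the strongest sites of MEIS1 (-172.2 to -138.6), the MECOM long (-29.4 to -15.8) and short start (-67.7 to -37.4), WT1 (-195.0 to -6.98), BAALC (-222.6 to -98.4) and ETV6 (-166.3 to -105.2), and for the start sites of PBX3 (-30.6 to -17.4) and BAALC (-103.7 to -40.4). The cause was not tested. Pairing libraries by replicate number (replicate block) left the difference in peaks at -15.5 with an exact p of 0.5, the smallest that 2 pairs allow, and changed no other call; the labels do not say that the numbers pair libraries. Depth is limited to 2 to 39 reads at these summits, so differences of a few reads could not be told from counting error.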
